A study of Mus musculus with 6 samples.

Results

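The chemokine, IL-6 family cytokine and receptor genes of differentiating myoblasts are 10 of the 46078 genes in the count table. They were taken by name and are the chemokines *Ccl2*, *Ccl7*, *Cxcl1*, *Cxcl5* and *Cxcl12*, the cytokines *Il6* and *Lif*, and the receptor genes *Lifr*, *Il6st* and *Osmr*. RNA came from C2C12 cells, an immortalized mouse myoblast line, that were switched for 2 days to low serum with insulin, transferrin and selenium, a change that makes myoblasts leave the cell cycle and fuse. The 3 KO libraries (KO1 to KO3) were made from cells in which *Hnrnpa2b1*, the gene of an RNA-binding protein that takes part in splicing, was disrupted with Cas9 and a single guide RNA, and the 3 WT libraries (WT1 to WT3) from cells with the gene intact. Both genotypes were puromycin-selected clones picked with a ring, and the sources used here do not tie a library to a clone, so p-values measure the spread between these libraries and an effect of the knockout and a feature of the clones cannot be told apart.

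Chemokines are small secreted proteins that draw cells along a gradient through receptors coupled to G proteins. Those of the CC group, such as *Ccl2* and *Ccl7*, mainly attract monocytes, whereas *Cxcl1* and *Cxcl5* attract neutrophils through Cxcr2, and *Cxcl12* acts on Cxcr4 and guides stem and progenitor cells, muscle precursors among them. Cytokines of the IL-6 family signal through gp130, the protein of *Il6st*, which pairs with Lifr for leukemia inhibitory factor and with Osmr for oncostatin M, and then activates Jak kinases and Stat3. Muscle fibres and myoblasts release IL-6 and leukemia inhibitory factor, which are known to act on myoblast growth and differentiation.

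Counted reads ranged from 33605258 to 40558740 a library. Levels are given as CPM (counts scaled to library size with edgeR's TMM factors) and as TPM, which also corrects for transcript length. *Hnrnpa2b1* itself had 159, 195 and 249 CPM in KO1 to KO3 against 225, 229 and 252 in WT1 to WT3, with a log2 fold change of KO over WT, here called the log2 ratio, of −0.23 (standard error, SE, 0.18, adjusted p = 0.381). On counts the log2 ratio was −0.09 without KO1 and −0.41 without KO3. On log2(TPM + 1), limma gave −0.49 (SE 0.24, adjusted p = 0.174), and −0.76 without KO3 (adjusted p = 0.0266). Small insertions and deletions made by Cas9 can leave the RNA in place, so the RNA level does not check the labels. The paper states that the knockout clones were checked for the protein by immunofluorescence and Western blot. All 10 muscle markers fixed for these cells passed the filter on low counts, with *Myod1* and *Cdh15* called higher and *Myf5* lower in KO. The call of *Cdh15* was lost without KO3, WT1 or WT3 (edgeR, adjusted p of at most 0.13). The summed level of the 10 muscle markers was 20947, 9077 and 9090 CPM in KO1 to KO3 and between 14370 and 18177 CPM in the WT libraries.

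The 5 chemokines were higher in KO, *Osmr* was higher and *Il6st* was lower, while *Lif*, *Lifr* and *Il6* did not pass the test. Of the 10 genes, 6 were called higher and 1 lower at an adjusted p under 0.05 (edgeR's quasi-likelihood test over 14828 genes, Benjamini-Hochberg adjustment). Of all genes tested, 22.7% were called, 12.1% as higher and 10.6% as lower. In the 6 genes called higher every KO library lay above every WT library, which held for 22.7% of all genes tested, and in *Il6st* every KO library lay below, which held for 21.6%. The median log2 fold change of the 10 genes was 1.51, against 0.03 over all genes tested. All 10 exceeded the level that the filter asks for, 0.267 CPM, in every library, so none entered the test only through the genotype in which it was high. In bulk RNA, fewer cells that express a gene and less RNA per cell cannot be told apart.

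**Figure D1:**
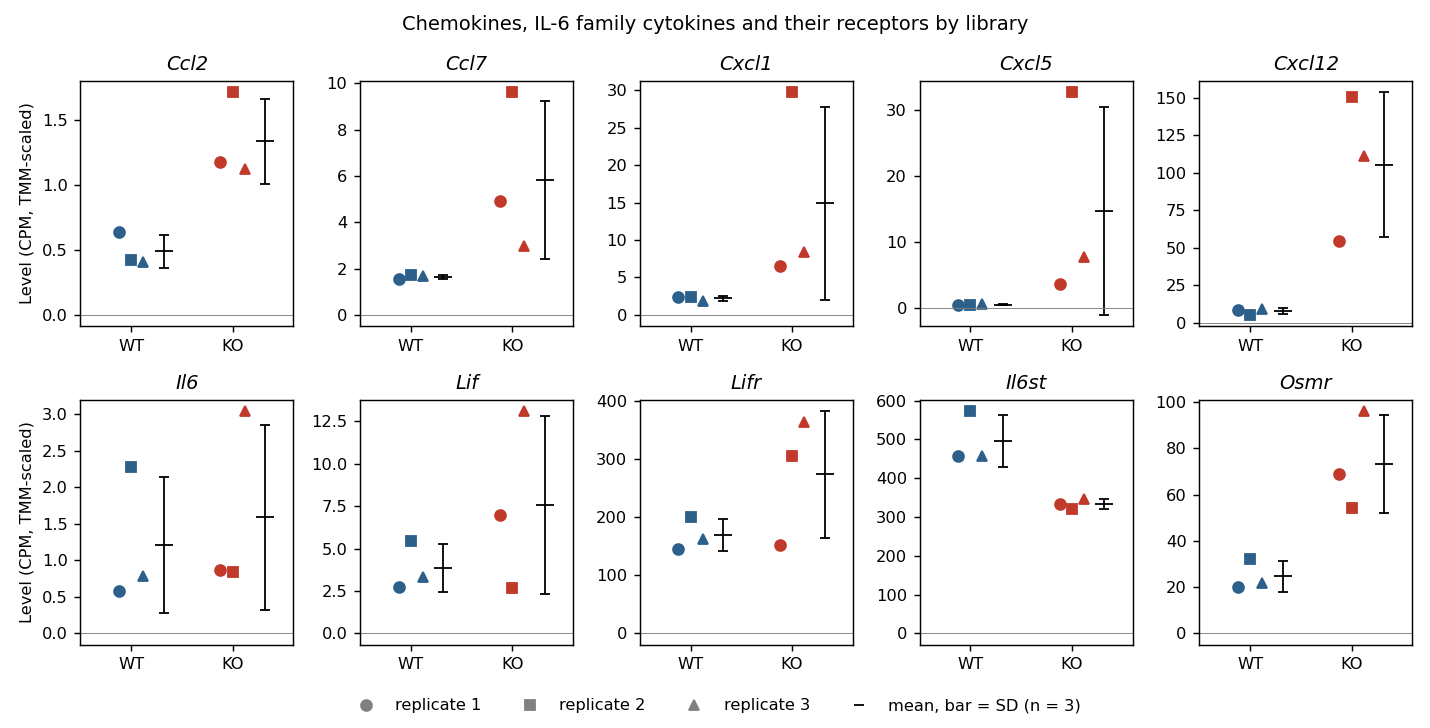
Level of each of the 10 genes in every library (vertical axis, CPM scaled with TMM factors, from 0 in each panel) for WT and KO. Symbols are replicates and the black marks are the mean and SD of 3 libraries. The chemokines are highest in KO2, and *Il6*, *Lif* and *Lifr* overlap between genotypes.

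*Cxcl12* (ENSMUSG00000061353), the ligand of Cxcr4, had the highest mean TPM of the 5 chemokines in both genotypes, although in WT2 *Cxcl1* and *Ccl7* were above it. It had 54.2, 151 and 111 CPM in KO1 to KO3 and 8.59, 5.21 and 9.30 CPM in WT1 to WT3. Each KO library was at least 7.04-fold above the WT mean. The means were 105 ± 48.5 CPM (SD, n = 3) in KO and 7.70 ± 2.18 CPM (SD, n = 3) in WT. KO exceeded WT by a log2 ratio of 3.77 (SE 0.40, adjusted p = 0.00193), and the adjusted p lay between 3.08e-33 and 0.0153 over the alternatives on counts. In TPM the levels were 10.4, 30.9 and 26.7 in KO and 1.86, 1.19 and 1.90 in WT, and limma on log2(TPM + 1) gave a difference of 3.04 (SE 0.35, adjusted p = 0.00139, at most 0.0406 over the alternatives on TPM).

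*Cxcl5* (ENSMUSG00000029371), a neutrophil attractant, had the largest log2 ratio of the 10 genes on counts and varied the most between KO libraries. It had 3.55, 32.7 and 7.71 CPM in KO1 to KO3, from 127, 1428 and 316 counts. The WT libraries held 0.434, 0.335 and 0.512 CPM, from 15, 11 and 19 counts. KO2 was 76.6-fold above the WT mean and KO1 was 8.32-fold above it. The SD of the KO libraries, 15.8 CPM, exceeded their mean of 14.7 CPM (n = 3), whereas the WT libraries had 0.427 ± 0.0886 CPM (SD, n = 3). The log2 fold change of 5.09 (SE 0.87, adjusted p = 0.00768) was 3.71 without KO2 and on counts it stayed called without any single library, with an adjusted p of at most 0.0462 over the alternatives. On log2(TPM + 1) the difference was 2.25 (SE 0.53, adjusted p = 0.0202 with limma), below that of *Cxcl12*, whereas with a pseudocount of 0.1 it was above that of *Cxcl12* (3.58). *Cxcl5* passed the TPM filter only through its KO libraries and was not tested there without any of them. Its call on TPM is therefore not read as a result. That call was also lost without WT1 (adjusted p = 0.0907), without WT3 (0.0695) and with no filter on low values (0.156).

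*Cxcl1* (ENSMUSG00000029380), a second ligand of Cxcr2, had the same order of KO libraries. Its levels were 6.52, 29.7 and 8.40 CPM in KO1 to KO3 and 2.43, 2.41 and 1.86 CPM in WT1 to WT3. The means were 14.9 ± 12.9 CPM (SD, n = 3) in KO and 2.23 ± 0.323 CPM (SD, n = 3) in WT. KO exceeded WT by a log2 ratio of 2.74 (SE 0.57, adjusted p = 0.0156) and 1.74 without KO2. The call was lost without WT1 (adjusted p = 0.0692) or WT3 (0.0691), and over the alternatives on counts the adjusted p spanned 5.75e-14 to 0.0692. On TPM the adjusted p was 0.0169 with limma and at most 0.137, with no filter on low values.

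The pair of CC chemokines rose as well, at smaller fold changes. *Ccl7* (ENSMUSG00000035373) had 4.90, 9.62 and 2.98 CPM in KO1 to KO3 and 1.53, 1.71 and 1.67 CPM in WT1 to WT3. The KO libraries were spread widely while the WT libraries lay close together. The log2 fold change of *Ccl7* was 1.83 (SE 0.43, adjusted p = 0.0216), and 1.26 without KO2. *Ccl2* (ENSMUSG00000035385), the monocyte attractant MCP-1, was read from few counts, 42, 75 and 46 in KO1 to KO3 against 22, 14 and 15 in WT1 to WT3. These are 1.18, 1.72 and 1.12 CPM in KO and 0.636, 0.427 and 0.404 CPM in WT. Its log2 fold change was 1.45 (SE 0.37, adjusted p = 0.0285). The call of *Ccl7* was lost without WT1, WT2 or WT3 (adjusted p of 0.0947, 0.0593 and 0.0803, and between 9.24e-06 and 0.0947 over the alternatives on counts, and up to 0.107 on TPM). That of *Ccl2* was lost without KO2, WT1, WT2 or WT3 (0.076, 0.0763, 0.0911 and 0.119, and between 0.0151 and 0.119 over the alternatives on counts).

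All 5 chemokines were highest in KO2. Relative to the WT mean they were 2.40 to 8.32 times as high in KO1, 3.51 to 76.6 times in KO2 and 1.82 to 18.1 times in KO3. The chemokines are also made by leukocytes and stromal cells, so markers of those cells were read in the same libraries. Of 11 leukocyte markers 4 were tested, and *Cd14* and *Lyz2* were called higher in KO. The call of *Cd14* was lost without WT1 or WT3 (adjusted p of at most 0.0635). *Lyz2* did not reach the level of the filter in every WT library, so its call is not read as a result. The summed level of all 11 was 6.54 to 8.23 CPM in KO and 3.44 to 4.19 CPM in WT, and the defining markers *Ptprc* (CD45) and *Adgre1* (F4/80) had at most 5 and 2 counts in any library. Of 8 fibroblast and fibro-adipogenic markers 6 were tested, and *Ly6a*, *Dpt*, *Cd34* and *Pdgfra* were called higher. The call of *Cd34* was lost without WT1 or WT3 (adjusted p of at most 0.0599). The summed level of the 8 markers was 417 to 767 CPM in KO and 112 to 179 CPM in WT, while *Thy1* had at most 5 counts. The sum of the 8 was 767, 417 and 613 CPM in KO1 to KO3, lowest in KO2, where the chemokines were highest. Single markers differed from the sum, as *Ly6a*, *Dpt* and *Cd34* were highest in KO2. Of 6 endothelial markers 3 were tested, and *Kdr* was called lower in KO. The sum of the 6 was 0.308, 1.44 and 1.32 CPM in KO1 to KO3 and between 1.98 and 3.64 CPM in WT. In KO1 that whole sum was close to the level of the filter, 0.267 CPM, so the call of *Kdr* is not read as a result. The part of the stromal markers, and of the lower summed muscle markers in KO2 and KO3, in the chemokine levels was not tested.

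**Figure D2:**
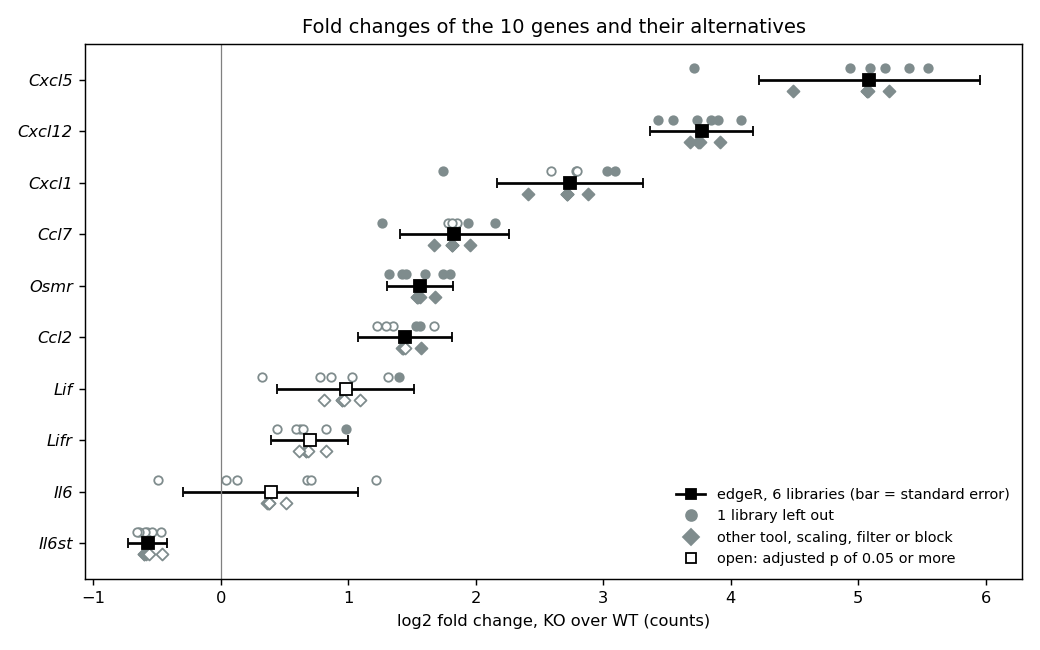
Log2 fold change of KO over WT on counts for each gene (horizontal axis). Black squares are the edgeR values from all 6 libraries with their standard errors, grey circles leave out 1 library, grey diamonds change the tool, the scaling, the filter or the block, and open symbols have an adjusted p of 0.05 or more. *Cxcl12*, *Cxcl5* and *Osmr* are filled throughout, and *Il6* has values on both sides of 0.

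Among the receptor chains *Osmr* rose and *Il6st* fell. *Osmr* (ENSMUSG00000022146), the chain specific to oncostatin M and IL-31, had 68.8, 54.3 and 96.3 CPM in KO1 to KO3 and 20.1, 32.3 and 21.8 CPM in WT1 to WT3. The lowest KO library was above the highest WT library. The means were 73.1 ± 21.3 CPM (SD, n = 3) in KO and 24.7 ± 6.64 CPM (SD, n = 3) in WT. KO exceeded WT by a log2 ratio of 1.56 (SE 0.26, adjusted p = 0.00704), it lay between 1.32 and 1.80 over the alternatives on counts, and its adjusted p there was at most 0.041. On TPM limma gave a difference of 1.27 (SE 0.26, adjusted p = 0.0133), and this call was lost without WT1 (0.0765), without WT3 (0.0602) and with no filter on low values (0.103).

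*Il6st* (ENSMUSG00000021756), the shared chain gp130, fell. It had 334, 320 and 346 CPM in KO1 to KO3 and 457, 574 and 458 CPM in WT1 to WT3. The coefficient of variation of the KO libraries was 3.86%, the smallest among the 10 genes in KO. The log2 ratio was −0.57 (SE 0.15, adjusted p = 0.033), and the KO mean was 0.672 of the WT mean. The direction held under the alternatives run, with log2 ratios from −0.66 to −0.46 on counts and from −0.65 to −0.43 on TPM, but the call was lost without KO2, KO3, WT1, WT2 or WT3 (adjusted p of 0.0719, 0.0631, 0.0947, 0.0971 and 0.0723), with total counts in place of TMM factors (0.0711) and with the replicate number as a block (0.0747). On TPM it was not called (limma, adjusted p = 0.058). Over the alternatives on counts the adjusted p lay between 0.00497 and 0.0971.

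*Lifr* (ENSMUSG00000054263), the chain shared by leukemia inhibitory factor, cardiotrophin 1 and ciliary neurotrophic factor, split the KO libraries. KO2 and KO3 had 305 and 363 CPM, above the 145, 199 and 162 CPM of WT1 to WT3, and KO1 had 152 CPM, within the WT range. KO exceeded WT by a log2 ratio of 0.70 (SE 0.30, adjusted p = 0.13). Without KO1 it was 0.98 with an adjusted p of 0.00508, with no filter on low counts the adjusted p was 0.00874, and over the alternatives on counts the adjusted p spanned 0.00508 to 0.348 (up to 0.403 on TPM). Without KO3 it was 0.44.

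Neither cytokine gene passed the test. *Lif* (ENSMUSG00000034394) had 6.97, 2.68 and 13.1 CPM in KO1 to KO3 and 2.75, 5.45 and 3.34 CPM in WT1 to WT3. KO2 was below every WT library, and KO1 and KO3 were above every WT library. Its log2 fold change was 0.98 (SE 0.54, adjusted p = 0.214), 1.40 with an adjusted p of 0.0472 without KO2, and 0.33 without KO3, and over the alternatives on counts the adjusted p spanned 0.0184, with no filter, to 0.676. *Il6* (ENSMUSG00000025746) had 0.867, 0.847 and 3.05 CPM in KO1 to KO3, from 31, 37 and 125 counts, and 0.578, 2.29 and 0.782 CPM in WT1 to WT3, from 20, 75 and 29 counts. In each genotype a single library, KO3 and WT2, held most of the *Il6* reads. Its log2 ratio of 0.39 (SE 0.68) did not exceed the spread of the libraries, with an adjusted p of 0.703, between 0.258 and 0.978 over the alternatives on counts, and it turned to −0.49 without KO3. KO3 had the highest level of *Il6*, *Lif*, *Lifr* and *Osmr* among the 6 libraries, KO2 that of the 5 chemokines and WT2 that of *Il6st*.

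TPM values allow the 10 genes to be set beside each other. In WT the order began with *Il6st* at 41.6 ± 6.12 TPM (SD, n = 3), *Lifr* at 15.6 ± 2.73 and *Osmr* at 3.74 ± 1.07, each with a range separate from the next. *Cxcl12* (1.65 ± 0.397 TPM), *Cxcl1* (1.33 ± 0.247), *Ccl7* (1.21 ± 0.115), *Lif* (1.07 ± 0.472), *Il6* (0.80 ± 0.73) and *Ccl2* (0.376 ± 0.133) followed, each overlapping the next in range. *Cxcl5* was last with 0.173 ± 0.0241 TPM (SD, n = 3), below every library of *Ccl2*. In KO the order was *Il6st* (28.4 ± 4.20 TPM), *Lifr* (27.1 ± 11.7), *Cxcl12* (22.7 ± 10.8), *Osmr* (10.8 ± 4.30), *Cxcl1* (9.02 ± 7.35), *Cxcl5* (6.30 ± 6.44), *Ccl7* (4.61 ± 2.41), *Lif* (1.94 ± 1.44), *Ccl2* (1.02 ± 0.209) and *Il6* (0.966 ± 0.905), and no gene was separate from the next. On TPM, 8 of the 10 genes were tested by limma and 5 were called higher, against 8.46% of all genes tested. These were *Cxcl12*, *Osmr*, *Ccl7*, *Cxcl1* and *Cxcl5*. The call of *Cxcl5*, admitted by the TPM filter through KO alone, is not read as a result, although the 5 include it. *Ccl2* and *Il6* did not pass that filter.

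**Figure D3:**
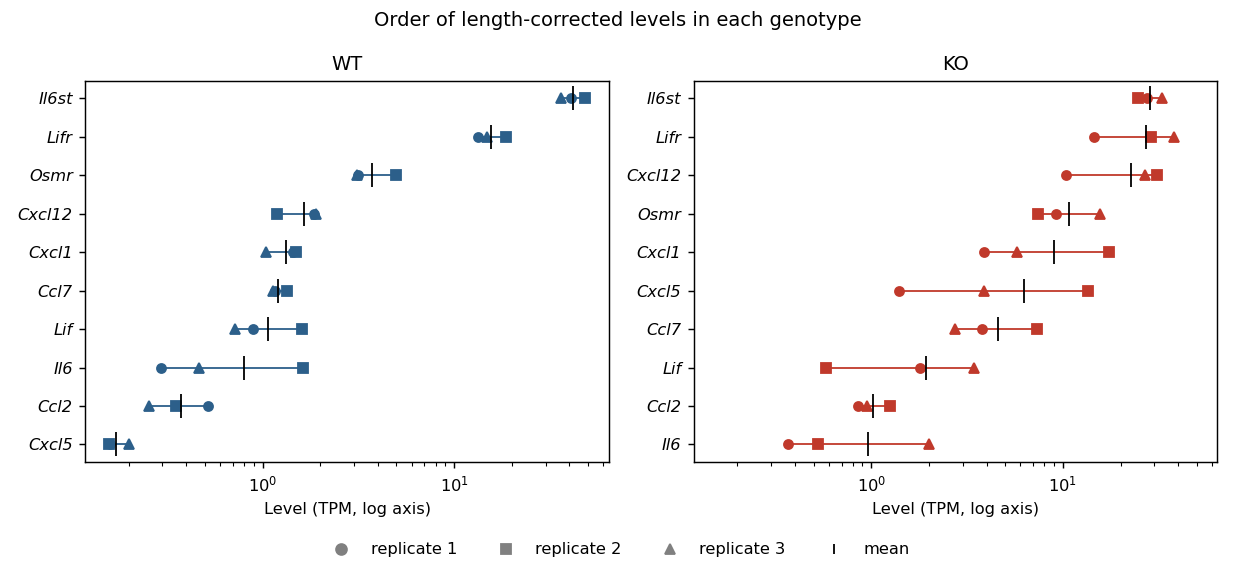
Length-corrected level of the 10 genes (horizontal axis, TPM on a log scale), ordered by the mean in WT (left) and in KO (right). Symbols are replicates, lines span their range and black ticks are means. *Cxcl12* lies below *Osmr* in WT at 1.65 TPM and above it in KO at 22.7 TPM.

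The balance of the receptor chains was read as a ratio of TPM levels within each library. *Il6st* was 3.07, 2.59 and 2.42 times *Lifr* in WT1 to WT3, and 1.87, 0.861 and 0.873 times *Lifr* in KO1 to KO3. *Il6st* was 12.9, 9.69 and 11.6 times *Osmr* in WT1 to WT3, and 2.98, 3.33 and 2.11 times *Osmr* in KO1 to KO3. Both ratios were lower in every KO library than in any WT library (exact two-sided permutation test of the means, p = 0.1 for each, the smallest that 3 against 3 libraries allow, so that 0.05 cannot be passed). The ratio of *Lifr* to *Osmr* overlapped between genotypes, with 1.59, 3.87 and 2.42 in KO and 4.22, 3.74 and 4.80 in WT.

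Several of the genes are neighbours on GRCm38. *Ccl2* (chromosome 11, 82035571 to 82037453) and *Ccl7* (82045712 to 82047525) lie 8.26 kb apart. Within 250 kb of them 1 of 8 other genes was tested, the eosinophil attractant *Ccl11*, which was called higher at a log2 ratio of 3.06 (SE 0.72, adjusted p = 0.0225, a call lost without WT1 or WT3 and, at 0.0597, with the replicate block). It reached the level of the filter in 3 KO but 2 WT libraries, so it entered the test through KO and its call is not read as a result. Without KO2 its log2 ratio was 2.30. Its counts were 72, 280 and 89 in KO1 to KO3 against 17, 3 and 25 in WT1 to WT3. In the same cluster *Ccl8* was not tested, with 22, 27 and 9 counts in KO1 to KO3 against 6, 3 and 8 in WT1 to WT3, and *Ccl1* and *Ccl12* had at most 1 count in any library.

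*Cxcl5* (chromosome 5, 90759360 to 90761624) and *Cxcl1* (90891241 to 90893115) lie 130 kb apart in the CXC cluster. Within 250 kb of them 22 other genes are listed and 4 were tested, with none called: *Mthfd2l* (log2 fold change −0.07), *Ereg* (0.34), *Areg* (−0.77) and an unnamed transcript (−0.88). *Cxcl2* and *Cxcl3* had at most 1 and 0 counts in any library. *Osmr* (chromosome 15, 6813577 to 6874969, minus strand) and *Lifr* (7129559 to 7197489, plus strand) lie 255 kb apart, and neither tested neighbour was called (*Rictor*, 0.02, and *Gm7666*, −0.70).

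**Figure D4:**
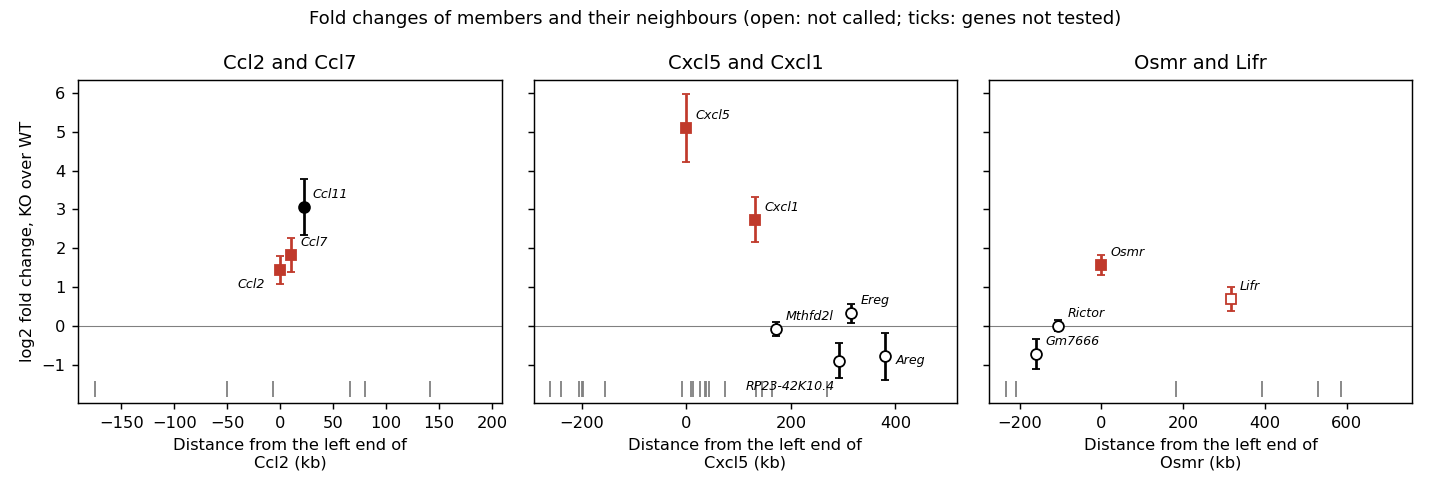
Log2 fold change of KO over WT (vertical axis, bars are standard errors) against distance in kb from the left end of the first gene of each pair. Red squares are the genes described here, black circles their tested neighbours within 250 kb, open symbols were not called, and grey ticks are genes that were not tested (a gene whose left end lies farther away is not drawn). *Ccl11*, at 3.06 (2.30 without KO2), is the 1 neighbour with a filled symbol and entered the test through its KO libraries.

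The remaining genes are *Cxcl12* (chromosome 6, 117168535 to 117181367), *Il6* (chromosome 5, 30013114 to 30019981), *Lif* (chromosome 11, 4257557 to 4272514) and *Il6st* (chromosome 13, 112464070 to 112510086). On chromosomes cut into stretches of 10 Mb, the genes tested in the stretch that holds each gene had median log2 fold changes between −0.35 (81 genes with *Lif*) and 0.30 (122 genes with *Il6*). The median was 0.10 over 75 genes for *Cxcl12*, −0.08 over 53 for *Cxcl1* and *Cxcl5*, 0.07 over 98 for *Ccl2* and *Ccl7*, 0.14 over 28 for *Osmr* and *Lifr* and −0.17 over 38 for *Il6st*. In the stretch of *Il6* 25 genes were called higher and 3 lower. In that of *Il6st* 11 genes were called lower and 2 higher, and in that of *Lif* 24 were called lower and 2 higher. The numbers called higher and lower were 8 and 8 for *Cxcl12*, and 6 and 6 for *Cxcl1* and *Cxcl5*. They were 13 and 10 for *Ccl2* and *Ccl7*, and 5 and 1 for *Osmr* and *Lifr*. Over all genes tested 12.1% were called higher and 10.6% lower.

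Promoter sequences of 7 of the 10 genes were taken from RefSeq (GRCm38.p6), and *Ccl2*, *Ccl7* and *Cxcl5* had no entry. The 250 bases before each start were searched on both strands for motifs of factors known to induce inflammatory genes. AP-1 was TGANTCA, STAT was TTCNNNGAA, C/EBP was TTNNGNAA and NF-kB was its consensus of 10 letters. In 32817 promoters of the same length, AP-1 matched in 6.75%, STAT in 7.01%, C/EBP in 36.8% and NF-kB in 7.25%. *Cxcl1*, which rose, and *Il6*, which did not pass the test, both held NF-kB matches near the start, and *Cxcl12*, which rose, held no match to any of the motifs. They are shown from 130 to 11 bases before the start, 5′ to 3′ on the plus strand, with matches in capitals.
Cxcl1, chr5:90891115-90891234: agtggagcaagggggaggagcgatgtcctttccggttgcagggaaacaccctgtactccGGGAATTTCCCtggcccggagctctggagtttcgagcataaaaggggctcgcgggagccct
Il6, chr5:30012984-30013103: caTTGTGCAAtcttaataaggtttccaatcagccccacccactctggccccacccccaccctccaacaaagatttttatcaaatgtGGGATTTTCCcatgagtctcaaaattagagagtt
Cxcl12, chr6:117168405-117168524: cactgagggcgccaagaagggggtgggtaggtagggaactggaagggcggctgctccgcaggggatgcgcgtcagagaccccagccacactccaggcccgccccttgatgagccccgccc

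In *Cxcl1* the capitals mark 2 NF-kB matches, 1 on each strand, that overlap and together span 71 to 61 bases before the start. In *Il6* they mark a C/EBP match at 128 to 121 bases and an NF-kB match at 44 to 35 bases, and an AP-1 match lies farther out, at 249 to 243 bases. *Lif* held an AP-1 match at 228 to 222 bases and an NF-kB match at 178 to 169 bases. *Il6st*, *Osmr* and either start of *Lifr* held none. A match is a run of letters and not a measured binding site.

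The other genes of these pathways were read from 10 lists with 154 genes, of which 90 were tested. Of these, 31 were called higher and 7 lower, or 42.2%, against 22.7% of all genes tested, and their median log2 fold change was 0.49 against 0.03. Without WT1 the number called was 13, and without WT3 it was 15. Of the 31 genes called higher, 4 reached the level of the filter in every KO library but not in every WT library. For *Il27ra*, *Il1b*, *Ccl11* and *Ptpn6* it was reached in 0, 1, 2 and 2 WT libraries. These 4 entered the test through the genotype in which they were high, and their calls are not read as results. The 42.2% and the median of 0.49 include them, so neither is read as a result about the lists. For the counts by list that follow, 12.1% of all genes tested were called higher and 10.6% lower.

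Among receptors for the chemokines, 6 of 23 were tested and 2 were called higher. *Cxcr4*, the signalling receptor of Cxcl12, had 54.3, 92.6 and 82.7 CPM in KO1 to KO3 and 22.7, 24.7 and 24.9 CPM in WT1 to WT3, a log2 ratio of 1.67 (SE 0.20, adjusted p = 0.00266). *Ackr3*, which binds and removes Cxcl12, had 37.4, 45.8 and 28.2 CPM in KO and 17.9, 19.6 and 18.8 CPM in WT, a log2 ratio of 0.98 (SE 0.19, adjusted p = 0.0113, a call lost without WT1 or WT3). For the ligand and for both of its receptors every KO library lay above every WT library, which held for 22.7% of all genes tested. Of the 23 receptors 13 had at most 3 counts in every library.

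Of 18 other CC chemokines 3 were tested. Besides *Ccl11*, *Ccl9* was lower in KO, with 1.34, 3.09 and 2.88 CPM against 28.6, 17.8 and 33.6 CPM in WT, a log2 ratio of −3.44 (SE 0.37, adjusted p = 0.00193). *Ccl25*, a thymic and gut chemokine, was also lower, at −1.55 (SE 0.28, adjusted p = 0.00963). Of 14 CXC, CX3C and XC chemokines 4 were tested, and *Cxcl13*, the B cell attractant, was lower with 2.32, 0.985 and 0.366 CPM in KO against 6.97, 13.6 and 7.95 CPM in WT (−2.96, SE 0.61, adjusted p = 0.0141, and −3.80 without KO1). Of the 18 CC chemokines 10, and of the 14 others 4, had at most 3 counts in every library, and their direction cannot be read at this depth.

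Among the other IL-6 family ligands 4 of 10 were tested and 2 were called higher. *Clcf1*, cardiotrophin-like cytokine, had 24.2, 28.7 and 23.3 CPM in KO and 10.8, 12.1 and 10.6 CPM in WT, a log2 ratio of 1.19 (SE 0.15, adjusted p = 0.00299). *Ctf1*, cardiotrophin 1, had a log2 fold change of 1.34 (adjusted p = 0.0383, a call lost without KO2, WT1, WT2 or WT3). *Osm*, the ligand of Osmr, had at most 2 counts in any library.

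Of 5 other receptor chains of the family 3 were tested and called higher, 1 of them (*Il27ra*) only because its KO libraries passed the filter. *Il6ra* had 5.96, 12.1 and 7.74 CPM in KO and 3.01, 5.06 and 2.64 CPM in WT, a log2 ratio of 1.27 (SE 0.35, adjusted p = 0.0373, a call lost without KO2, KO3, WT1 or WT3). *Il11ra1* had a log2 ratio of 3.45 (SE 0.49, adjusted p = 0.00468), but the mouse genome holds near-identical copies of this gene and reads shared with them make its value uncertain. *Il27ra* had 16 to 23 counts in KO and 5 or 6 in WT, where no library reached the level of the filter, so its call is not read as a result.

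Of the kinases and factors that carry the signal all 10 were tested, 2 were higher and 1 was lower. *Jak1* (0.15, adjusted p = 0.535) and *Stat3* (0.19, adjusted p = 0.367) overlapped between genotypes. *Jak2* (0.62) was among the higher genes and *Tyk2* (−0.89) was lower, calls that were lost without each of KO2, KO3, WT1, WT2 and WT3 for *Jak2* and without WT1 for *Tyk2*. Of 14 negative regulators 5 were called higher and none was called lower: *Ptpn6* (2.15), *Socs5* (0.87), *Ptpn1* (0.82), *Socs3* (0.77) and *Socs4* (0.56). Every KO library lay above every WT library in 7 of the 14 and below in 4, with log2 ratios down to −0.50. *Ptpn6* reached the level of the filter in 3 KO but 2 WT libraries, so its call is not read as a result. *Socs3*, which is induced by Stat3 and binds gp130, had an adjusted p of 0.0192, and its call was lost without KO3, WT1, WT2 or WT3. Of these 5 calls only that of *Socs5* was kept without each single library.

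Genes known as Stat3 targets gave 5 higher and 1 lower of 15 tested. The higher genes were *Il4ra* (1.62), *Junb* (1.58), *Ccnd1* (1.21), *Cebpb* (0.92) and *Socs3*, which is also among the negative regulators, and the lower gene was the kinase gene *Pim1* (−0.88). *Junb* and *Il4ra* kept their calls without each single library, and the other 4 lost them without WT1 or WT3. The list's median was 0.67. The other 9 tested genes were not called, among them *Bcl3* (−0.37), *Cebpd* (−0.09), *Mcl1* (0.12) and *Bcl6* (−0.12), which lie below that median. Every KO library lay above every WT library in 7 of the 15 and below in 1.

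**Figure D5:**
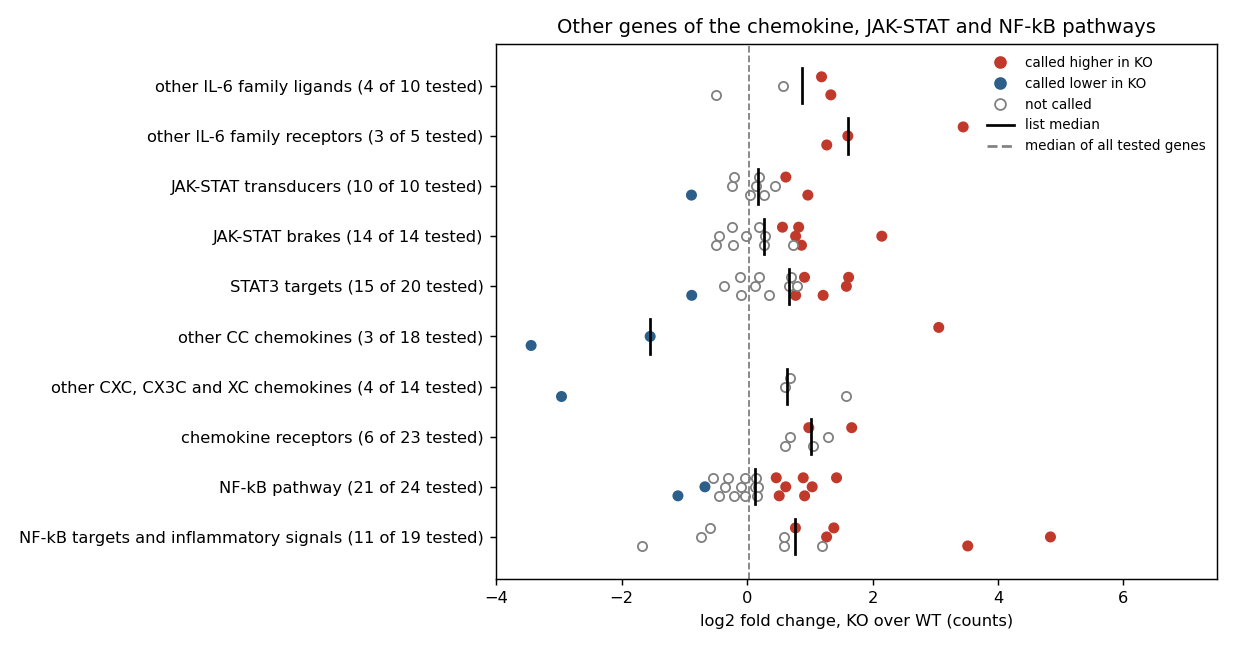
Log2 fold change of KO over WT (horizontal axis) for each tested gene of the 10 pathway lists. Filled points were called higher (red) or lower (blue), open points were not called, black bars are list medians and the dashed line is the median of all genes tested, 0.03. Calls in both directions are seen among JAK-STAT transducers, STAT3 targets and genes of the NF-kB pathway. Among the CC chemokines the point called higher is *Ccl11*, which entered the test through its KO libraries.

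NF-kB is the transcription factor family best known for inducing chemokine genes. Of 21 tested genes of its pathway 7 were higher and 2 lower, with a median of 0.12. *Nfkbia* (1.43), *Nfkbiz* (1.04), *Map3k14* (0.92), *Ikbke* (0.90), *Nfkb1* (0.62), *Traf6* (0.51) and *Traf3* (0.46) were higher. Of these *Map3k14* kept its call without each single library, and the other 6 lost theirs without WT1 or WT3. *Ikbke*, *Nfkb1*, *Traf6* and *Traf3* lost theirs in other settings as well. The call of *Traf3* was also lost with DESeq2 (adjusted p = 0.0633), RLE size factors (0.0512) or no filter (0.135), that of *Ikbke* with RLE size factors (0.0518) and that of *Traf6* with no filter (0.0959). *Tnfaip3*, the brake known as A20, was lower with 18.3 ± 3.59 CPM (SD, n = 3) in KO and 39.3 ± 3.93 CPM (SD, n = 3) in WT (−1.10, adjusted p = 0.00595), and so was its partner *Tnip1* (−0.67, a call lost without KO2, KO3, WT1 or WT3 and with total counts in place of TMM factors). The subunit gene *Rela* had a log2 fold change of 0.14 and was not called. Among 11 tested NF-kB targets and inflammatory signals 5 were called higher and none lower: *Il33* (4.84), *Il1b* (3.52), *Csf1* (1.38), *Il1r1* (1.27) and *Tnfrsf1a* (0.77). The log2 ratios of the 11 ranged from −1.68 to 4.84. Every KO library lay above every WT library in 7 of them and below in 1. *Il1b* reached the level of the filter in 1 WT library and entered the test through KO, so its call is not read as a result. Without WT1 or WT3 the calls of *Il1b*, *Csf1* and *Il1r1* were lost, that of *Il1b* also without WT2, and the log2 ratio of *Il1b* was 2.14 without KO1. *Il33*, a cytokine that acts as an alarm signal, had 43.9 ± 10.5 CPM (SD, n = 3) in KO and 1.53 ± 0.677 CPM (SD, n = 3) in WT.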

How the data were processed

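The libraries, 3 KO and 3 WT, were made from total RNA after removal of ribosomal RNA. The authors trimmed and aligned the reads with STAR and counted them on genes (featureCounts), and deposited raw counts. They also deposited TPM values from StringTie. Tool versions and the use of strand are not given in the sources used here. The sources name GRCm39 and mm9, and the paper also names mm10 for its splicing cluster and poly(A) steps. Of the gene positions deposited with the TPM values, 83.2% equal those of GENCODE M21 (GRCm38), so GRCm38 is used. All 6 count columns were used and 0 were left unused.

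Counts were scaled with TMM factors (0.949 to 1.08), filtered with filterByExpr and tested with edgeR 4.0.16 (quasi-likelihood test, two-sided, genotype alone, Benjamini-Hochberg over 14828 genes, threshold 0.05) in R 4.3.3. log2(TPM + 1) was tested with limma 3.58.1 for the 11691 genes that reached a TPM of 1 in at least 3 libraries. TPM differences on this scale understate the change of low genes. TPM values sharing a gene identifier were summed. DESeq2 1.42.0, other scaling, no filter, a replicate block, a pseudocount of 0.1 and leaving out each library were the alternatives. The chi-square per degree of freedom between libraries of a genotype was at least 46.6, so no library repeated another. The fits were tested on simulated data. A symbol with a second identifier without counts was read from the identifier with counts.

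The members and lists were chosen with earlier results of these data known. Named beyond the 10 genes are pathway genes called by edgeR whose mean log2 CPM was not below 0, *Il6ra*, *Jak1*, *Stat3*, *Socs3*, *Cxcr4*, *Ackr3* and *Hnrnpa2b1*. Other genes, named for context, were chosen after their values were seen. Some results that fall under this rule are not reported here.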

Additional observations from a re-analysis of the deposited data

How the results depend on the processing

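Counts of calls rested on single libraries. Leaving out each in turn gave 3 to 8 of the 10 genes (7 with all libraries), 13 to 49 pathway genes (38) and 933 to 4712 of all genes (3361) with edgeR, and 1 to 5 of the 10 (5) and 482 to 3134 of all genes (2366) on TPM. The lowest numbers came without WT1 for all genes and without WT1 or WT3 for the 10. Without the filter on TPM, 1056 genes and 1 of the 10, *Cxcl12*, were called. DESeq2 called 7 of the 10 and edgeR without a filter 9. The log2 ratio of *Il6* lay between −0.49 without KO3 and 1.21 without WT2. The former was the only change of sign among 110 values of the 10 genes on counts, and was not called. Of the other values, 88 kept their side of the threshold, 17 lost a call and 4 gained one. Libraries with the same replicate number did not deviate together (Pearson's r across genes 0.14, −0.12 and 0.00). With the replicate number as a block, 5 of the 10 genes and 2520 of all genes were called, and *Ccl2* and *Il6st* lost their calls, as did the pathway genes *Ccl11*, *Ctf1*, *Ikbke*, *Jak2*, *Socs4*, *Traf3* and *Traf6*. Counts of 11 to 75 limit *Ccl2* and the WT values of *Cxcl5*.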
